A study of Rattus norvegicus with 9 samples.

Results

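The genes described here encode the receptors and the killing machinery of natural killer (NK) cells: the lectin-like receptors of the Klr and Ly49 families, the natural cytotoxicity, SLAM and nectin-binding receptors, the granzymes, perforin and their partners in the cytotoxic granule. Members were all gene probes of a rat whole-genome array whose name in the scanner file begins with Klr, Ly49 or Gzm or is one of a short list of NK and cytotoxic genes, among them Ncr1, Ncr3, Nkg7, Prf1, Cd244, Cd226, Ctsw and Faslg. This gave 32 of 35658 gene or transcript names, read by 36 of 41012 probes. Of these, 33 probes of 29 genes passed the filter on dim signals, which asked that the Cy5 signal stand clear of background on 4 arrays or more. The probes of Ncr3, Ly49i8 (Klra2 in RefSeq) and Gzmg (Gzmf in RefSeq) did not pass, and no probe is named Gnly, Hcst or Sh2d1b. Ncr3 and Ly49i8 were each well above background on 1 cafeteria array and 1 control array, and Gzmg on 1 cafeteria array and 0 control arrays.

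The RNA came from peripheral blood mononuclear cells (PBMC), the lymphocytes and monocytes that a density gradient separates from other blood cells. Each of 9 male Wistar rats, an outbred strain, gave 1 sample at 6 months of age, taken in the fed state. The cafeteria group held 5 animals that had a hypercaloric, fat-rich choice of foods beside their chow for 4 months, from 2 months of age, and the control group held 4 animals that had chow alone. The question asked of the series is what diet-induced obesity does to gene expression in these cells. On every array the animal's RNA carried the dye Cy5 and a pool of all samples carried Cy3, so a log2 ratio sets the animal against that pool. The dyes were not swapped, so for a given gene a ratio of 0 need not be the exact level in the pool. No genotype or transgene is named for any animal, and the authors dropped 1 control sample that gave too little RNA.

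NK cells kill infected or transformed cells without prior sensitization, and a balance of inhibitory and activating receptors sets whether they do. In rodents many of these receptors are encoded side by side in the NK gene complex, the inhibitory Ly49 receptors and the CD94/NKG2 pairs read MHC class I molecules, and each NK cell carries its own combination of them. On release of the granule, perforin makes the target membrane permeable and granzymes, which are serine proteases, enter and start cell death. Cytotoxic T cells share much of this machinery.

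PBMC are a mixture, so fewer NK cells and less RNA per NK cell cannot be told apart in these values. Between 58.8% and 66.7% of the 43379 gene spots of an array had Cy5 signal well above background. All 7 NK markers outside the members that have a probe were well above background on all 9 arrays, as were 11 of 11 T cell, 8 of 8 B cell and 8 of 10 monocyte markers with a probe, which are the cell types such a preparation holds. Neutrophil, platelet and erythroid markers were also well above background on all arrays, for 5 of 9, 7 of 7 and 6 of 6 genes with a probe. The arrays came from 7 slides. Only 2 of the slides held both groups: cafeteria 1 with control 1, and cafeteria 10 with control 13.

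Before the values, the promoters of 7 members are shown. They form separate sets of receptor and granule genes, and each set shared a feature of its array values, described further on. Each is the 300 bases around the RefSeq transcription start on the GRCr8 build, written 5′ to 3′ along the gene's strand, and capitals mark the letters TGTGGT or its complement ACCACA, the core to which RUNX factors bind. Klre1 (chr4:164719354-164719653, + strand), Klrc3 (chr4:164798709-164799008, - strand) and Klri2 (chr4:164947455-164947754, - strand) are receptor genes whose 3 lowest arrays were the same.
Klre1: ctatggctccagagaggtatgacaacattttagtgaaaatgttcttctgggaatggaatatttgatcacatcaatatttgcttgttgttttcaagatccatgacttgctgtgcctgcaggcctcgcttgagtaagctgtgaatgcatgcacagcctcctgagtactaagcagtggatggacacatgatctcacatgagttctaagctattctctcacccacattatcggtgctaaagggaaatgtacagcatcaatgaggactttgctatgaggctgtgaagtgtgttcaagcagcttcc
Klrc3: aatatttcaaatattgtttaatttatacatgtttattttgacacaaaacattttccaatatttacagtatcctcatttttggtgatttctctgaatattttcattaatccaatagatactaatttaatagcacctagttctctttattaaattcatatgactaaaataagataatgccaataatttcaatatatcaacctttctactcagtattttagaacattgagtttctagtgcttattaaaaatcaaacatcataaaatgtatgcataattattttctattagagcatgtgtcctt
Klri2: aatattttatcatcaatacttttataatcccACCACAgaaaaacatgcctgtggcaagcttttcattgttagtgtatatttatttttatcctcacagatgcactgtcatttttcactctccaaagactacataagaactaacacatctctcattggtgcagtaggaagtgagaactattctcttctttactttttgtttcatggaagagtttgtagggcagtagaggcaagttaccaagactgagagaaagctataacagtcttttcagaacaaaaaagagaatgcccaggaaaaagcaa
The granule genes Prf1 (chr20:29788790-29789089, + strand), Gzma (chr2:46485647-46485946, - strand), Gzmb (chr15:34462420-34462719, - strand) and Nkg7 (chr1:102981247-102981546, + strand) had their highest value on the same array, cafeteria 7. So had Gzmk, Gzmm and Faslg, whose promoters are not shown.
Prf1: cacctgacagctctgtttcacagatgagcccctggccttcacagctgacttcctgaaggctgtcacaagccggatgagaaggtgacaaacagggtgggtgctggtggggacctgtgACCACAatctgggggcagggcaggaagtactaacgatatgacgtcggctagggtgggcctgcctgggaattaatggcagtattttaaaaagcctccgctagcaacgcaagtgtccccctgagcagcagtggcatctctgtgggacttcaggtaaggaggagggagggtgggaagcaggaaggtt
Gzma: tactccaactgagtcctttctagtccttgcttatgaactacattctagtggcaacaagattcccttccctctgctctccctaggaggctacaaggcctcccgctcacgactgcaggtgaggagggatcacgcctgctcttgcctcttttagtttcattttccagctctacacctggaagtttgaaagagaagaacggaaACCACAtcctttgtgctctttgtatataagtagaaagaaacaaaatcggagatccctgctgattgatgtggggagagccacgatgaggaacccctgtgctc
Gzmb: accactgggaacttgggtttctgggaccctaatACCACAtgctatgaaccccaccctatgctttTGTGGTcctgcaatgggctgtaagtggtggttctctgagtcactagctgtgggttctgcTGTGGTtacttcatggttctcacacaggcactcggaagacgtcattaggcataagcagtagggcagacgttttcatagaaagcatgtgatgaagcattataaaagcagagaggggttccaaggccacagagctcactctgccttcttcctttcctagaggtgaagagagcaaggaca
Nkg7: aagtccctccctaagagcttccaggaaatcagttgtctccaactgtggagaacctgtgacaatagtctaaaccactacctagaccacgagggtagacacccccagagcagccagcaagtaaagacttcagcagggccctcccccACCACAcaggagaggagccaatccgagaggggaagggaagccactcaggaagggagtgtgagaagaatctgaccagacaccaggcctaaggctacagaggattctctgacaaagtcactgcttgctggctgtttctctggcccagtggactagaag
The RUNX letters stood in all 4 of these granule gene promoters, with 3 matches in Gzmb and 1 in each of Prf1, Gzma and Nkg7. Among the members that passed the filter and have a RefSeq promoter, 7 of 8 granule promoters and 6 of 17 receptor promoters held them on either strand, beside 17.3% of all 33469 promoters of that length. Faslg was the granule gene without them, and Gzmc, which held them, had its highest value on another array, control 1. The T-box letters GGTGTGA, or TCACACC on the other strand, stood in 2 of the 25 member promoters, those of Gzmk and Gzmm, and in 3.83% of all promoters. A match of letters is a description of the sequence and not of binding.

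The most marked property of the members was how far apart the animals lay. The range of a gene over the 9 arrays, its highest minus its lowest log2 ratio, had a median of 1.18 over the 29 genes and of 0.46 over all 25801 probes tested. Of the 29 genes, 28 lay above that median of all probes, and 20 lay above the level of 0.99 that 90% of all probes stayed under. Within the tenth of probes of like signal, 12 members still lay in the top 10%. These ranges describe the spread over animals of both diets and carry no test.

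**Figure D1:**
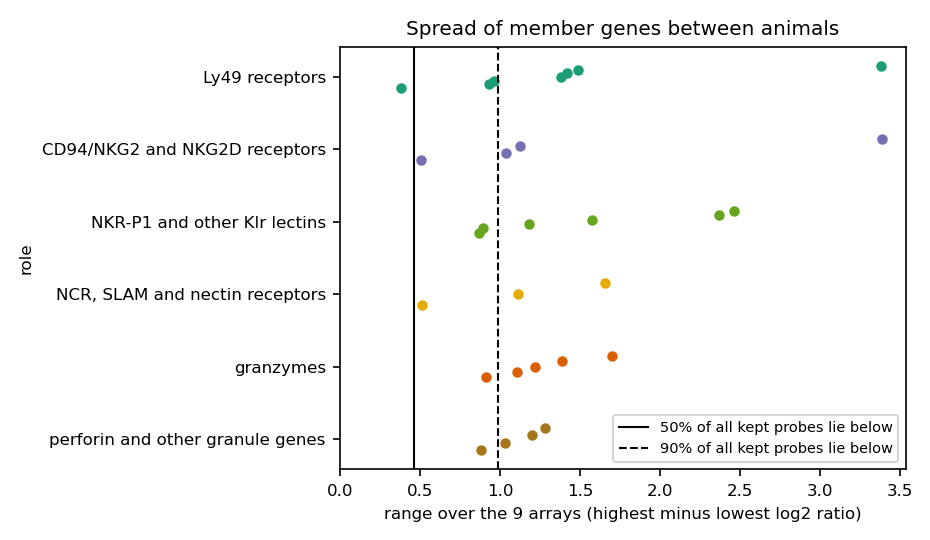
Range over the 9 arrays of each member gene (points, on the log2 scale, rows by role) beside the median (solid line) and the 90% level (dashed line) of all probes that passed the filter. Klrc3 and Ly49s3 stand furthest out, at 3.38 each, while Ly49i7, at 0.38, is the member below the median of all probes. It also has the lowest mean Cy5 signal of the members shown.

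The widest range belonged to Klrc3, which encodes NKG2E, a partner of CD94. Its log2 ratios were 0.33, -0.062, 1.50, -1.88 and -1.36 on cafeteria arrays 1, 4, 7, 10 and 13, against 0.10, -0.17, -1.85 and -0.034 on control arrays 1, 4, 7 and 13. Cafeteria 10, cafeteria 13 and control 7 were low and cafeteria 7 was high, so both groups held animals at the bottom, and the ends lay 10.4-fold apart. A second Klrc3 probe overlaps the first on the genome and gave 0.41, -0.042, 1.48, -1.20 and -0.75 on the cafeteria arrays, against 0.12, -0.025, -1.09 and 0.12 on the control arrays, with the same arrays at both ends. The file also lists transcripts now assigned to Klrc1 for both probes and to Klrc2 for the first, so signals of these near copies cannot be separated.

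The same 3 animals were the lowest for 2 further receptors nearby. Klre1 encodes a receptor that, in rat and mouse, pairs with a KLRI chain, and it had -0.039, -0.17, 1.19, -0.96 and -0.53 on the cafeteria arrays, against -0.061, -0.52, -1.17 and -0.08 on the control arrays. Klri2, which encodes such a partner chain, had 0.069, -0.12, 1.33, -1.09 and -0.75 on the cafeteria arrays, against -0.076, -0.17, -1.13 and 0.078 on the control arrays. Both genes were highest on cafeteria 7 and spanned 5.16-fold (Klre1) and 5.51-fold (Klri2) over the animals. Cafeteria 10, cafeteria 13 and control 7 were the 3 lowest arrays for 1.15% of 25028 probes with a value on all arrays, and for the 4 member probes of these 3 genes. The 3 genes were singled out after their values were seen, so that share is a description.

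On the rn4 build, to which the probe positions refer, the 3 genes lie on chromosome 4 within 231 kb (chr4:166862168-167092842), and the file does not say which exon a probe reads. Between them lie Klrd1, Klrk1 and Klrc2, whose 3 lowest arrays were not the same. Klrd1, the CD94 chain that pairs with NKG2 chains, had 0.18, -0.21, 0.79, -0.21 and -0.02 on the cafeteria arrays, against -0.13, -0.34, -0.11 and -0.13 on the control arrays. Klrc2, or NKG2C, had 0.30, -0.29, 0.64, -0.39 and 0.044 on the cafeteria arrays, against 0.03, -0.036, -0.21 and 0.061 on the control arrays. Both were highest on cafeteria 7, as Klre1, Klrc3 and Klri2 were, but cafeteria 13 was not among their 3 lowest arrays. Klrc2 was in part like Klrc3: its lowest array was cafeteria 10 as well, and control 7 was among its 3 lowest. Klrk1, which encodes the activating receptor NKG2D, had 0.15, -0.0094, -0.27, 0.10 and 0.23 on the cafeteria arrays, against 0.065, -0.0083, 0.15 and 0.055 on the control arrays. Its range over the 9 arrays was 0.50, and its lowest value was on cafeteria 7, where its neighbours were highest.

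**Figure D2:**
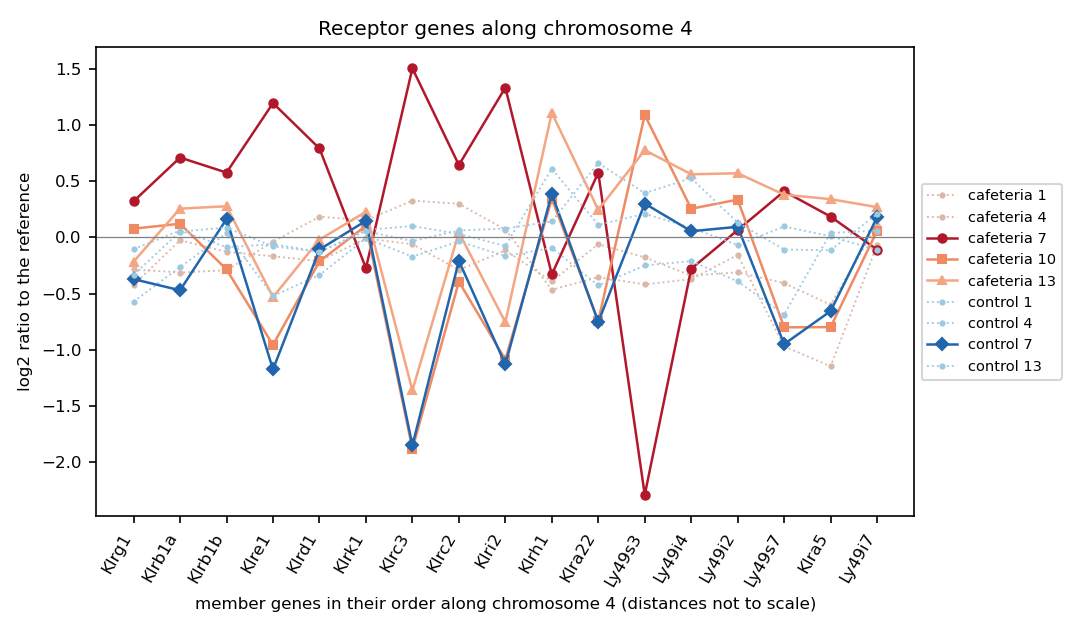
Log2 ratio to the reference (vertical axis) of the 17 members measured on chromosome 4, in their order along the chromosome, with 1 line per array. Cafeteria 7 (dark red) stands above the rest at Klre1, Klrc3 and Klri2 and below it at Ly49s3, while cafeteria 10, cafeteria 13 (oranges) and control 7 (dark blue) form the bottom of the first 3.

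Ly49 receptors bind MHC class I, and in the rat names used by the files an i marks an inhibitory and an s a stimulatory receptor. Ly49s3 had -0.42, -0.18, -2.29, 1.09 and 0.78 on the cafeteria arrays, against 0.21, -0.25, 0.30 and 0.39 on the control arrays. Here cafeteria 7 was far below all other animals and cafeteria 10 and cafeteria 13 were the highest, a spread of 10.4-fold within the cafeteria group alone. The probe of Ly49i4, an inhibitory receptor, overlaps only the edge of the span of the Ly49s3 probe on the genome. It was dimmer, with a mean Cy5 signal of 9.08 on the log2 scale against 13.47 for Ly49s3. The Ly49i4 probe ran from -0.37 to 0.56 and read -0.28 on cafeteria 7.

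A pair of Ly49 genes 33.1 kb apart had a profile of its own. Klra5, a Ly49 family gene, had -1.15, -0.60, 0.18, -0.80 and 0.34 on the cafeteria arrays, against 0.0095, 0.04, -0.66 and -0.11 on the control arrays. Ly49s7, named here after its values were seen, had -0.97, -0.41, 0.41, -0.80 and 0.38 on the cafeteria arrays, against 0.097, -0.69, -0.95 and -0.11 on the control arrays. Cafeteria 1, cafeteria 10 and control 7 were the 3 lowest arrays for both, as for 1.19% of all probes. The pair was picked out after the values were seen, so that share is a description. The genes differed on control 4, which read 0.04 for Klra5 and -0.69 for Ly49s7. By Cy5 signal alone, without the reference, Klra5 was lower on control 4, at 11.71, than on control 7, at 11.98. The Klra5 probe also lists the transcript of Ly49s7, so these probes may not read separate genes.

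Klra22, a further Ly49 family gene, had -0.35, -0.06, 0.58, -0.74 and 0.24 on the cafeteria arrays, against 0.11, -0.43, -0.75 and 0.66 on the control arrays. It too was low on cafeteria 10 and control 7, although control 4 and not cafeteria 1 stood next to them. Ly49i7, at the far end of the cluster, ranged over 0.38 in all 9 animals and Ly49i2 over 0.96.

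Klrh1, a lectin-like receptor gene beside Klri2, had -0.47, -0.39, -0.33, 0.34 and 1.11 on the cafeteria arrays, against 0.61, -0.093, 0.39 and 0.14 on the control arrays. Cafeteria 13 was highest and cafeteria 1 lowest, so its order differed from that of Klri2. The Klrh1 probe was also dimmer, with a mean Cy5 signal of 8.00 on the log2 scale against 11.42 for Klri2. The other 3 lectins, Klrb1a and Klrb1b of the NKR-P1 family and Klrg1, an inhibitory receptor of mature cells, spanned 0.87 to 1.18 and were each highest on cafeteria 7.

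Among the granule genes, too, cafeteria 7 was mostly the highest array, as it was for 11 of the 20 receptors. Perforin (Prf1) had -0.25, -0.032, 0.77, -0.10 and 0.15 on the cafeteria arrays, against 0.07, -0.27, -0.50 and -0.069 on the control arrays. Gzma, a granzyme of trypsin-like specificity, had -0.32, -0.39, 0.91, -0.17 and 0.59 on the cafeteria arrays, against -0.36, -0.48, -0.063 and -0.08 on the control arrays. The groups overlapped for both genes, with cafeteria 7 highest.

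Gzmb, the granzyme that activates caspases, had -0.40, -0.47, 0.53, 0.33 and 0.23 on the cafeteria arrays, against 0.11, -0.69, -0.13 and -0.071 on the control arrays. Gzmk and Gzmm were highest on cafeteria 7 as well, at 0.59 and 0.48. Faslg, the ligand of the death receptor Fas, had 0.22, -0.12, 0.79, 0.17 and 0.59 on the cafeteria arrays, against 0.24, -0.23, 0.72 and 0.23 on the control arrays. Cafeteria 7 was thus the highest array for 7 of the 9 granule genes, and for 18 of all 29 members, beside 11% of all probes. Control 4 was the lowest array for 9 of the 29 members, again beside 11% of all probes.

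The exceptions were Gzmc and Ctsw. Gzmc, a further granzyme of the chromosome 15 cluster, had 0.01, -1.20, -0.18, -0.71 and 0.09 on the cafeteria arrays, against 0.50, -0.60, 0.33 and 0.18 on the control arrays. Ctsw, a cysteine protease of NK and cytotoxic T cells, had -0.059, -0.50, -0.44, -0.25 and -0.34 on the cafeteria arrays, against 0.57, -0.63, -0.33 and 0.35 on the control arrays. Both were highest on control 1, and their groups overlapped.

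The array carries 3 probes under the name Gzmb, at separate places on chromosome 15, and they did not run together. On rn4 the probe of Gzmb lies at chr15:35195458-35195517 and that of granzyme-like protein I at chr15:35062817-35063001, with the Gzmc probe between them. No transcript listed for the granzyme-like protein probes matches a RefSeq gene, so these probes may read genes other than Gzmb. The probe described in the file as granzyme-like protein I resembled that of Gzmb, with values from -0.39 to 0.39. The probe described as granzyme-like protein III (chr15:34900680-34900739, rn4) had -1.25, -1.10, -1.08, 0.05 and -0.38 on the cafeteria arrays, against 0.76, -1.28, 0.30 and -1.23 on the control arrays. Its 5 lowest arrays lay at -1.08 or below and the other 4 at -0.38 or above, a range of 2.04 in all, with animals of both diets on either side. The fold changes of the 3 probes had unlike signs, at -0.39 (SE 0.45) for granzyme-like protein III, 0.24 (SE 0.23) for Gzmb and 0.13 (SE 0.17) for granzyme-like protein I.

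**Figure D3:**
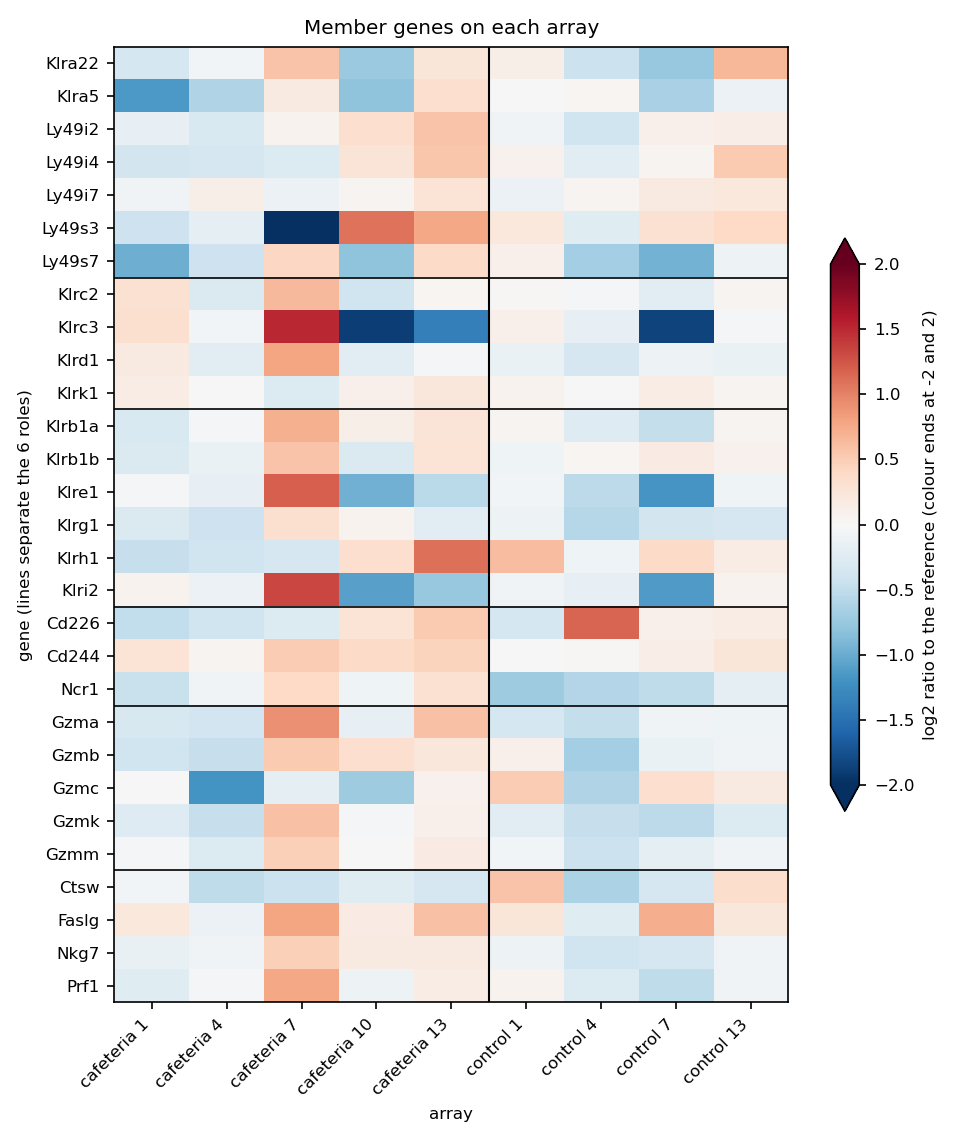
Log2 ratio to the reference (colour) of the 29 member genes (rows, by role) on the 5 cafeteria arrays (left) and the 4 control arrays (right). The column of cafeteria 7 is mostly red, and the dark blue cells are those of Ly49s3 on cafeteria 7 and of Klrc3 on cafeteria 10, cafeteria 13 and control 7.

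Against this spread, no member passed the test between cafeteria and control arrays. In limma, with Benjamini-Hochberg adjustment over all 25801 probes, 0 of 33 member probes had an adjusted p under 0.05, as had 0% of all probes. Unadjusted, 3 member genes had a p under 0.05, all higher in cafeteria animals, beside 5.7% of all probes (1.88% higher and 3.82% lower). The groups did not overlap for 0 members, beside 0.88% of all probes higher and 1.26% lower. A log2 fold change above 0 was found for 19 of 29 genes, beside 52.5% of all probes, and for 10 of 29 with slide as a block.

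**Figure D4:**
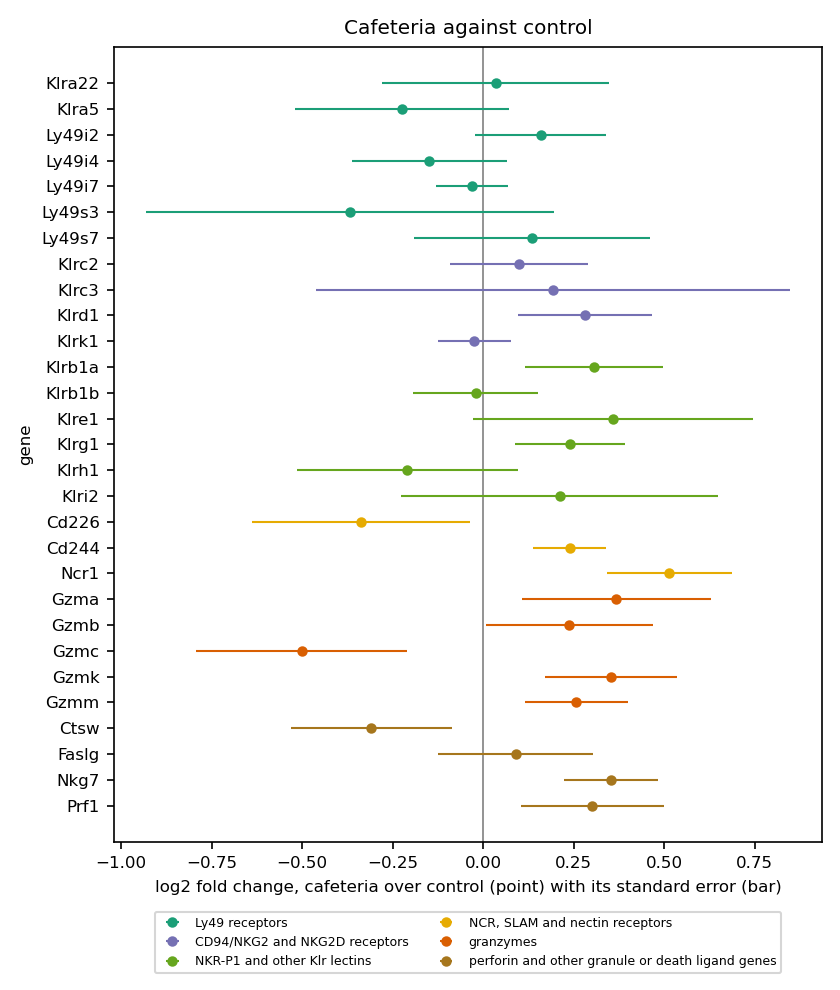
Log2 fold change of cafeteria over control (points) with its standard error (bars) for the 29 member genes, coloured by role. Ncr1, at 0.52, is the highest and Gzmc, at -0.50, the lowest, and the bars of Klrc3 and Ly49s3 are the longest.

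Ncr1 encodes NKp46, an activating receptor that marks NK cells in many mammals (chr1:68969603-68969662, rn4). It had -0.45, -0.068, 0.40, -0.09 and 0.30 on the cafeteria arrays, against -0.71, -0.58, -0.51 and -0.18 on the control arrays. Of the 5 cafeteria animals, 4 lay above every control animal, and cafeteria 1 lay below control 13. The log2 fold change was 0.52 (SE 0.17, 1.43-fold, limma adjusted p = 0.628). Within the 2 slides that held both groups the difference was 0.26 and 0.095, and with slide as a block, which leaves 1 residual degree of freedom, it came to 0.18.

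Nkg7, a granule membrane protein of cytotoxic cells, had -0.14, -0.064, 0.48, 0.18 and 0.19 on the cafeteria arrays, against -0.098, -0.40, -0.34 and -0.064 on the control arrays. Its log2 fold change was 0.35 (SE 0.13, limma adjusted p = 0.729), with -0.043 and 0.25 within the slides and 0.10 with slide as a block. Cd244, which encodes the SLAM family receptor 2B4, had 0.28, 0.05, 0.51, 0.39 and 0.44 on the cafeteria arrays, against -0.0049, 0.021, 0.13 and 0.23 on the control arrays. Every cafeteria animal but cafeteria 4 lay above all controls. The log2 fold change was 0.24 (SE 0.10, limma adjusted p = 0.838), with 0.28 and 0.16 within the slides and 0.22 with slide as a block.

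The other Cd244 probe, whose transcript RefSeq now assigns to Cd244l1, gave 0.19 (SE 0.13, limma adjusted p = 0.971). Cd226, or DNAM-1, an activating receptor for nectin family ligands, had -0.49, -0.39, -0.28, 0.27 and 0.53 on the cafeteria arrays, against -0.35, 1.17, 0.097 and 0.16 on the control arrays. Control 4 was the highest animal, and the fold change was -0.34 (SE 0.30, limma adjusted p = 0.982).

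By role, the median log2 fold change was -0.031 over 7 Ly49 receptors, 0.15 over 4 CD94/NKG2 and NKG2D receptors, 0.23 over 6 other lectins and 0.24 over 3 NCR, SLAM and nectin receptors. It was 0.26 over 5 granzymes and 0.20 over 4 perforin and other granule genes. Over all 20 receptors it was 0.12, and over the 9 granule genes 0.26, where all probes had a median of 0.0068. Both medians were below 0 in the 4 animals that shared slides: within the 2 shared slides the receptors had -0.11 and -0.12 and the granule genes -0.043 and -0.035, and with slide as a block, which rests on the same 4 animals, the medians were -0.12 and -0.044. Slide cannot be told apart from the animals used there. Without cafeteria 7 the receptors had -0.014 and the granule genes 0.14.

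Receptors were also read by the direction of their signal. The 5 receptors known as inhibitory had a median log2 fold change of -0.021 and the 7 known as stimulatory one of 0.099, with 0 and 1 of them at an unadjusted limma p under 0.05, and the difference was not tested.

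**Figure D5:**
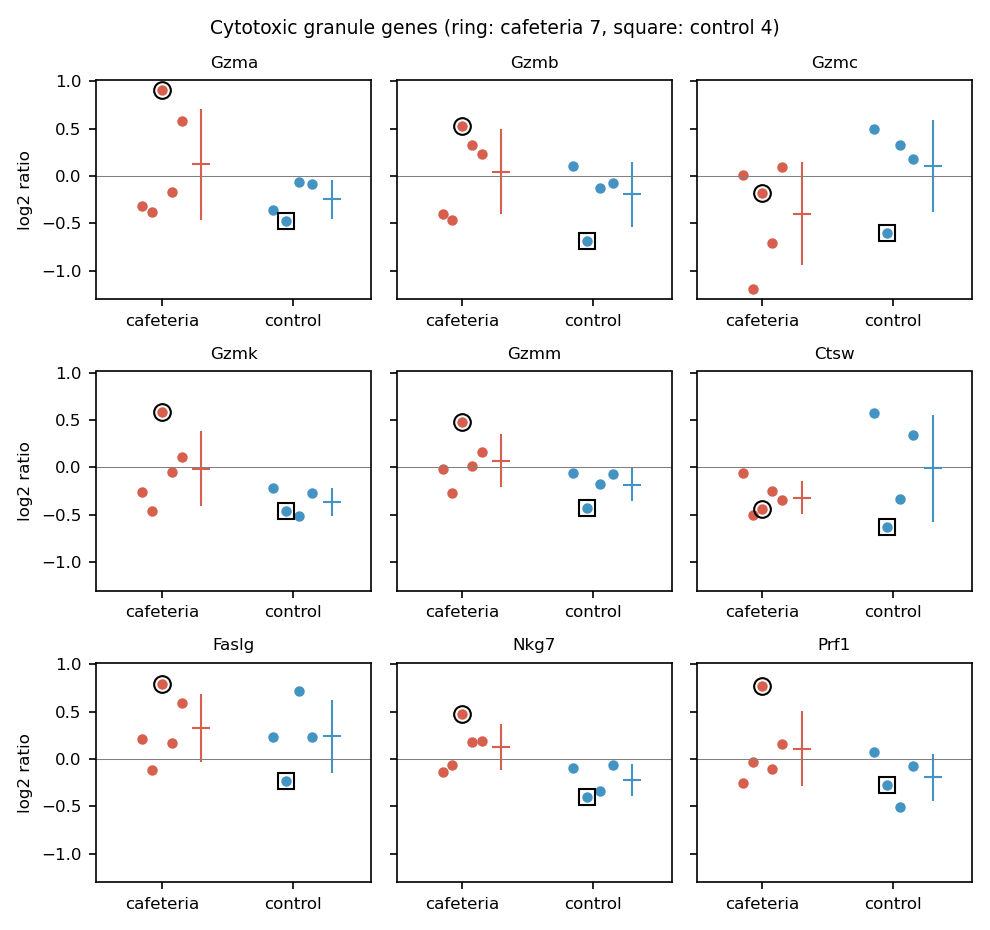
Log2 ratio to the reference of the 9 granule genes in cafeteria (left of each panel, 5 points) and control animals (right, 4 points), with the mean and standard deviation beside them. The ringed cafeteria 7 tops the cafeteria group except for Gzmc and Ctsw, and the boxed control 4 is at or near the bottom of the control group.

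Markers of other cell types moved with the animals too. The 7 NK markers outside the members were Tbx21, Tyrobp, Il2rb, Ccl5, Fcgr3a, S1pr5 and Xcl1. They had array medians of -0.37, -0.024, 0.47, 0.058 and 0.29 on the cafeteria arrays, against -0.12, 0.084, -0.36 and -0.10 on the control arrays. The median was highest on cafeteria 7, as for the granule genes, and 5 of 7 markers were higher in cafeteria animals. Fcgr3a and Xcl1 were lower, with log2 fold changes of -0.053 and -0.082, and Fcgr3a had its lowest value, -1.14, on cafeteria 7. Ccl5 had no value on cafeteria 1, cafeteria 10 and control 13. T cell markers had array medians of -0.50 to 0.22 on the cafeteria arrays, against -0.26 to 0.13 on the control arrays, and 11 of 11 were lower in cafeteria animals, of which 1, Bcl11b, had an unadjusted limma p under 0.05. Erythroid markers ran from -0.58 to -0.022 on the cafeteria arrays, against -1.10 to -0.75 on the control arrays. All 6 were higher in cafeteria animals with an unadjusted limma p under 0.05, beside 1.88% of all probes, while 0 passed after adjustment. For Alas2, Ahsp, Car2 and Hemgn, but not Hbb and Slc4a1, every cafeteria animal lay above every control, as for 0.88% of all probes. B cell markers ran from -0.30 to 0.33 on the cafeteria arrays, against -0.42 to 0.16 on the control arrays, and 8 of 8 were higher in cafeteria animals, with a median log2 fold change of 0.28, and 5 of 5 basophil and mast cell markers were higher, with one of 0.06. Platelet markers were lower for 7 of 7 genes (median -0.43), monocyte markers for 8 of 9 (-0.13), neutrophil markers for 4 of 5 (-0.36) and the cytotoxic T cell markers Cd8a and Cd8b for 2 of 2 (-0.17), and in these 6 lists 0 genes had an unadjusted limma p under 0.05. The array median of platelet markers was lowest on cafeteria 7, at -0.98, and highest on control 4, at 1.29. That of neutrophil markers was also lowest on cafeteria 7, at -0.92, and highest on cafeteria 4, at 0.51. Monocyte markers were lowest on cafeteria 1, at -0.56, with -0.45 on cafeteria 7, and highest on cafeteria 4, at 0.51. The part of these markers in the members' values was not tested.

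Genes that work with the members were read from 4 lists. Cafeteria animals had higher values for 11 and lower values for 15 of 26 adaptors and proximal signalling genes, and higher values for 5 and lower for 16 of 21 granule maturation and release genes. Of 26 cytokine receptors, regulators and secreted products, 17 were higher and 9 lower, and of 15 ligands of NK receptors 6 were higher and 9 lower. In limma 0 passed the adjusted threshold in any list, and without adjustment 1 gene was higher and 6 were lower at p under 0.05 in the 4 lists, beside 1.88% and 3.82% of all probes.

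The gene that was higher was Tbx21, which encodes the NK and T cell regulator T-bet, with a log2 fold change of 0.34 (SE 0.12, limma adjusted p = 0.671). Runx3, a RUNX factor of cytotoxic lymphocytes, was lower in every cafeteria animal than in any control, at -0.16, -0.33, -0.18, -0.30 and -0.26 on the cafeteria arrays, against 0.14, 0.0047, 0.10 and -0.056 on the control arrays. Its log2 fold change was -0.29 (SE 0.071, limma adjusted p = 0.470). Rab27a, needed to dock granules at the membrane, was also lower in every cafeteria animal than in any control, with a fold change of -0.42 (SE 0.13, limma adjusted p = 0.596). Calr, a chaperone also found in granules, had a fold change of -0.79 (SE 0.18, limma adjusted p = 0.458), and Kif5b, a motor that carries granules, one of -0.33 (SE 0.13, limma adjusted p = 0.756). Ptpn11, the phosphatase SHP-2 that inhibitory receptors recruit, was lower in every cafeteria animal than in any control too, with a fold change of -1.21 (SE 0.26, limma adjusted p = 0.409). Groups without overlap, with cafeteria lower, were found for 1.26% of all probes. RT1-T24-1, a rat MHC class I gene, had -0.48 (SE 0.20, limma adjusted p = 0.839).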

How the data were processed

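Each scanner file deposited by the authors holds, per the file headers, mean spot and local background intensity of both dyes and a log10 ratio, read with Feature Extraction 9.5.1.1 and placed on rn4. The authors' deposited value table is on a log2 scale and followed Cy5. Its centring is not stated.

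Background was corrected by normexp (offset 50), fitted without spots the software marked as non-uniform or outlying. Kept in, such spots lifted the median corrected Cy5 of control 4 to 786 and of cafeteria 4 to 1297, where 119 and 127 resulted without them. Ratios were normalized by loess within arrays, repeat spots averaged, and 25808 of 41012 probes kept. Groups were compared with limma 3.58.1 (R 4.3.3, the package data.table at version 1.17.8, statmod 1.5.0), threshold 0.05, checked on simulated data. The number of arrays limits the precision.

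A gene stands by its brightest kept probe. Values on every array are given for genes with an unadjusted p under 0.05 or groups that do not overlap, the 3 widest of each role, and Prf1, Gzmb, Klrd1, Klrk1, Ncr1 and Nkg7. Of 36 member probes, RefSeq (GRCr8) named 30 by accession and 5 by symbol. Members, lists and rules were chosen with earlier results of these data known. Alternatives covered background, scaling, filters, blocks, weights and leaving out arrays.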

Additional observations from a re-analysis of the deposited data

Results flagged for a closer look

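Within each group of each member probe, the array farthest out was compared with its nearest neighbour, which picked out 4 of 66 cases, all among control animals; about 1 case in 20 is picked out by chance. Control 7 stood apart from the other controls on both overlapping Klrc3 probes, at -1.85 where the nearest control read -0.17, and at -1.09 where the nearest read -0.025. Cafeteria 10 and cafeteria 13 were as low, or nearly so, on the same probes. Control 4 was the control farthest out for Klrd1, at -0.34 against a nearest value of -0.13. Control 13 was the farthest for the second Cd244 probe, that of Cd244l1, at 0.39 against -0.043.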

How the results depend on the processing

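No member probe passed the adjusted limma threshold under any of the 23 alternatives run, the lowest adjusted p being 0.265 (without cafeteria 1). Directions of the 20 named genes held in 432 of 460 cases. The fixed slide block, which rests on 2 slides and leaves 1 residual degree of freedom, turned the list medians to -0.12 (receptors) and -0.044 (granule genes) and the fold changes of Gzma to -0.027, Gzmb to -0.055, Faslg to -0.044, Prf1 to -0.18, Klrc2 to -0.094, Klrc3 to -0.81, Klrk1 to 0.067, Klra22 to -0.94, Ly49s3 to 0.034, Klre1 to -0.43 and Klri2 to -0.51. Klrk1 also turned to 0.082 by median centring and to 0.11 in the authors' deposited table, whose fold changes had a median of 0.13 over all probes, and Klra22 turned to -0.13 with array weights. Leaving out 1 array at a time gave -0.26 to 0.59 for Klrc3, -0.15 to 0.46 for Klri2, -0.69 to 0.15 for Ly49s3, -0.18 to 0.29 for Klra22, -0.072 to 0.053 for Klrk1, -0.047 to 0.21 for Klrc2 and -0.068 to 0.25 for Faslg, with sign changes without cafeteria 7, cafeteria 13, control 4 or control 7. Over these fits the receptor median ran from -0.014 to 0.23 and the granule median from 0.14 to 0.35. Member probes at an unadjusted p under 0.05, 3 in the report, were 8 in the authors' deposited table, 6 with the slide block, 5 without cafeteria 4, 2 without each of cafeteria 7, cafeteria 10 and control 1, and 1 without control 7. Over all probes, 2 passed after adjustment without control 1, without control 13 and with marked spots kept, and 0 in the report. Over all probes, 1470 had an unadjusted p under 0.05 in the report, 2572 in the authors' deposited table, and 845 with the slide block. The median range of the members stayed between 0.96 (without cafeteria 7) and 1.31, beside 0.40 to 0.77 over all probes. Fitting normexp on all spots was added after seeing the data and gave list medians of 0.075 and 0.33. The causes of these shifts were not tested.

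Both groups share the replicate numbers 1, 4, 7 and 13, and the labels do not say whether a shared number pairs animals. Same-numbered samples had correlations of -0.058, 0.034, 0.12 and -0.18 between their deviations. Values this small show no strong pairing, but a weak pairing would not be seen in them. With the number as a replicate block 0 member probes passed the adjusted threshold, the receptor median was 0.20 and the granule median 0.27, and 4 member probes had an unadjusted p under 0.05.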

Other observations

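Within the stretch from Klre1 to Klri2, 1 further probe outside the naming rule passed the filter. This unnamed probe, between those of Klrd1 and Klrk1 (chr4:166914344-166914403, rn4), was, like Ly49s3, lowest on cafeteria 7, at -0.71, and ranged over 1.38. No member probe was saturated on any array.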
